A study of Mus musculus with 3 samples.

Results

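The canonical Wnt response genes and effectors described here are 10 genes, Axin2, Lef1, Tcf7, Tcf7l1, Tcf7l2, Nkd1, Nkd2, Lgr5, Lgr6 and Rnf43. They were chosen by name, and all 10 were found among the 21446 gene identifiers shared by the 3 libraries of the series. The libraries hold cells that were sorted for red fluorescence from mandibular molars of Pthrp-mCherry knock-in mice on a C57BL/6 background at P15, P25 and 8 weeks. Each age is a single library of cells pooled from mandibles. The paper used both sexes in the study as a whole, and the sex make-up of each library is not given. No other allele or agent is named, and all 3 libraries share the knock-in and the sort, so that cells were sampled by activity of the Pthrp locus. The labels call them cementoblasts, the cells that form the mineralized layer on the tooth root, and their precursors. Counts are unique molecular identifiers (UMIs), which count captured RNA molecules, and levels are UMIs of a gene scaled to a total of 1000000 UMIs in a class of cells (CPM). Because a single library stands for each age, no difference between ages was tested. The 95% intervals given for levels are exact Poisson intervals and cover counting error only.

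In canonical Wnt signaling, secreted Wnt ligands bind Frizzled and Lrp5 or Lrp6 receptors and keep a complex built on Axin from destroying β-catenin. β-catenin then enters the nucleus and works with TCF and LEF proteins on target genes, several of which encode inhibitors of the pathway, so that their RNA is widely read as a sign that the pathway is active. In mineralized tissues the pathway is best known for promoting bone formation, and Wif1 encodes a secreted protein that binds Wnt ligands and holds them away from their receptors.

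The 10 genes fall into 3 groups by role. Tcf7 (chr11:52252371-52283014), Lef1 (chr3:131110471-131224356), Tcf7l1 (chr6:72626378-72789254) and Tcf7l2 (chr19:55741820-55933654) encode the DNA-binding partners of β-catenin. Axin2 (chr11:108920349-108950783) encodes a scaffold of the destruction complex, Nkd1 (chr8:88521354-88594884) and Nkd2 (chr13:73818534-73847631) encode proteins that bind Dishevelled, and Rnf43 (chr11:87662722-87735539) encodes a ubiquitin ligase that removes Frizzled from the cell surface. These 4 act as negative feedback. Lgr5 (chr10:115450311-115587780) and Lgr6 (chr1:134983301-135105276) encode receptors for R-spondins, which strengthen the Wnt signal. Positions are those of GENCODE M21 on GRCm38. Of the 10847 genes that only the P25 file counted, 10797 were found in GENCODE, and none of the 10 genes shares exon bases with these.

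Because TCF and LEF proteins recognize the core CTTTGA or CTTTGT, these letters were searched on both strands in the 250 bases before the annotated starts of the genes, with promoters taken from RefSeq (GRCm38.p6). The table held 15 windows for 9 of the 10 genes. Matches lay in 3 windows, of Lef1, Tcf7l1 and Tcf7l2. Those of Lef1 and Tcf7l2, at internal starts, are shown. For Tcf7l1, on the minus strand, RefSeq places the start inside the gene as GENCODE bounds it, so that the match lies within the GENCODE gene and not upstream of it, and its window is not printed. They are in lower case, 5′ to 3′ on the strand of the gene, with the matching letters in capitals (TCAAAG and ACAAAG are CTTTGA and CTTTGT read on the opposite strand).
Lef1, internal start, chr3:131156044-131156293, plus strand: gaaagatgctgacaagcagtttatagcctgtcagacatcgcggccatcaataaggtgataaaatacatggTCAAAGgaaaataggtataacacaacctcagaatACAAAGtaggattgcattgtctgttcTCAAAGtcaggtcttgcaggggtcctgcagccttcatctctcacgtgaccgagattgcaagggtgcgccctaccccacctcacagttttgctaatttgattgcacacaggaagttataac
Tcf7l2, internal start, chr19:55895071-55895320, plus strand: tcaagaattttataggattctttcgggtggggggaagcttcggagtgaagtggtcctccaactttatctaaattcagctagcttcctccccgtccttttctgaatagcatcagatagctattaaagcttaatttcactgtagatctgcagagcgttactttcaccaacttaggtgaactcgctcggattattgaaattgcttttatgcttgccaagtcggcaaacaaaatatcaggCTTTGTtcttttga
The Lef1 window held CTTTGA at 2 places and CTTTGT at 1, and the windows of Tcf7l1 and Tcf7l2 each held CTTTGT at 1 place. Over all 32851 promoter windows of the same length, 13.8% held CTTTGA and 16.5% held CTTTGT. The share of windows with either was not taken, so the count of windows with a match cannot be set against these shares. Counting was at the 3′ end of transcripts, so the levels below cannot tell the starts of a gene apart.

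Cells were classed by gates, which are thresholds on the UMIs of 7 genes. Ibsp, which encodes bone sialoprotein, and Ifitm5, a membrane protein of mineralizing osteoblasts, stand for the mineralizing cells. Hand2, a transcription factor of the mandibular mesenchyme, Rgs5, a marker of pericytes, and Pappa2, a secreted protease, complete the 5 mesenchymal gates. Krt14, a basal keratin, and Ptprc, which encodes CD45, stand for epithelial and immune cells. A cell entered a gate with at least 3 UMIs of the gene and at least 20 per 10000 UMIs for Ibsp and Krt14, 5 for Ifitm5 and Rgs5, and 2 for the rest. The Ibsp gate held 1381, 1314 and 991 cells at P15, P25 and 8 weeks. The Ifitm5 gate, which includes cells above both the Ibsp and the Ifitm5 gates, held 343, 587 and 178, and the Hand2 gate 169, 245 and 172. Cells above the Ibsp and Hand2 gates together, 31, 439 and 349 at P15, P25 and 8 weeks, were kept as a class of their own. The planned gates left such cells out, and no contrast of this class was planned. Sums of fewer than 20 cells entered no test, which left 17 sums with Rgs5 from P15 and 8 weeks, Pappa2 from P15 alone and Ptprc from P15 and P25. All 10 genes passed the filter on low counts, among 14370 genes tested.

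The libraries held 12926, 8971 and 5192 cells with 188157997, 169712592 and 46234378 UMIs, and the software version and gene reference of P25 cannot be told apart from that age. The markers of the Hand2, Krt14 and Ptprc gates were highest in their own gate in all 12 pairs of gene and library each, those of Ifitm5 in 13 of 15, those of Rgs5 in 10 of 15 and those of Pappa2 in 6 of 9. The markers of the Ibsp gate were highest there in only 5 of 12 pairs, with Dmp1 and Ank higher in the Ifitm5 gate. At 8 weeks the 43 cells of the Rgs5 gate went against a pericyte label, with no UMI of Kcnj8 and 3 of Notch3 (8.86 CPM, against 594 at P15), so they are called by the gate only. Between 13 and 26 cell barcodes were shared by a pair of libraries, at most 0.308% of the smaller one. Doublets were not called, and the part of doublets in the class above both the Ibsp and Hand2 gates was not tested. Its cells had a median of 15479, 13490 and 9960 UMIs, against 14833, 13074 and 8204 in the Ibsp gate.

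Among the gates and the class of cells that carried Ibsp and Hand2 together, the highest levels of these genes lay most often in that class. This class had the highest level in 12 of the 30 pairs of gene and library, against 5 for the Ifitm5 gate, 4 each for the Hand2 and Rgs5 gates, 2 each for Krt14 and Ptprc, and 1 for the Ibsp gate alone. Over all genes with at least 20 UMIs it was the highest class in 12.4% of pairs. Its 12 pairs were of Axin2, Lef1, Tcf7, Nkd1 and Lgr6, most of them counted in more than 1 library. In a test given below, edgeR called none of the 10 genes between this class and the Ibsp gate, against 0.728% of all genes. Cells above no gate, 16650 of 27089, were not ranked. At P15 the highest bin by Wif1, described below and made up mostly of such cells, held 168 CPM of Lef1, against 102 in this class. In 8 of the 30 pairs this class was highest with its interval apart from that of the next class, which 0.977% of all pairs showed. In the other pairs where it was highest (Lef1 and Lgr6 at P15, Tcf7 at P25 and 8 weeks) the intervals overlapped. For Nkd1 its level was 204, 263 and 310 CPM at P15, P25 and 8 weeks, above every gate in each library without overlap of intervals. At P15 this did not hold for a part of the Ifitm5 gate, the 137 cells above that gate alone. They stood at 239 CPM, within the interval of the class with Ibsp and Hand2 (168 to 247). Thinned to 3000 UMIs per cell, 32.3%, 49.7% and 57.0% of the cells with Ibsp and Hand2 held an Nkd1 UMI. The Clopper-Pearson intervals were 16.7% to 51.4%, 44.9% to 54.4% and 51.6% to 62.3%, and none of these cells was too shallow to be thinned. In the Ibsp gate the thinned share was 22.52%, 36.57% and 45.02% at P15, P25 and 8 weeks. In the Hand2 gate it was 11.31%, 38.78% and 41.86%. At P15 the Ibsp share lay within the interval of the cells with Ibsp and Hand2, so it did not set these classes apart at that age. The remaining shares of these gates lay below the intervals of that class. The gates' own intervals are not given here, so this does not show that the intervals were apart. In CD45 cells, where the source of the Nkd1 UMIs was not tested, the thinned share was 2.97% at P15 and 2.58% at P25. Unthinned, the shares were 90.3%, 92.9% and 85.4% in the cells with Ibsp and Hand2, and 7.95% and 8.39% in the Ptprc gate, whose median depth was 9907.5 UMIs at P15 and 15494 at P25. The 31 cells at P15 also held 3938 CPM of 4 myeloid markers, against 334 CPM in the Ibsp gate, and the part of this RNA in the P15 values was not tested. At P25 and 8 weeks the same markers stood at 10.2 and 8.93 CPM.

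**Figure D1:**
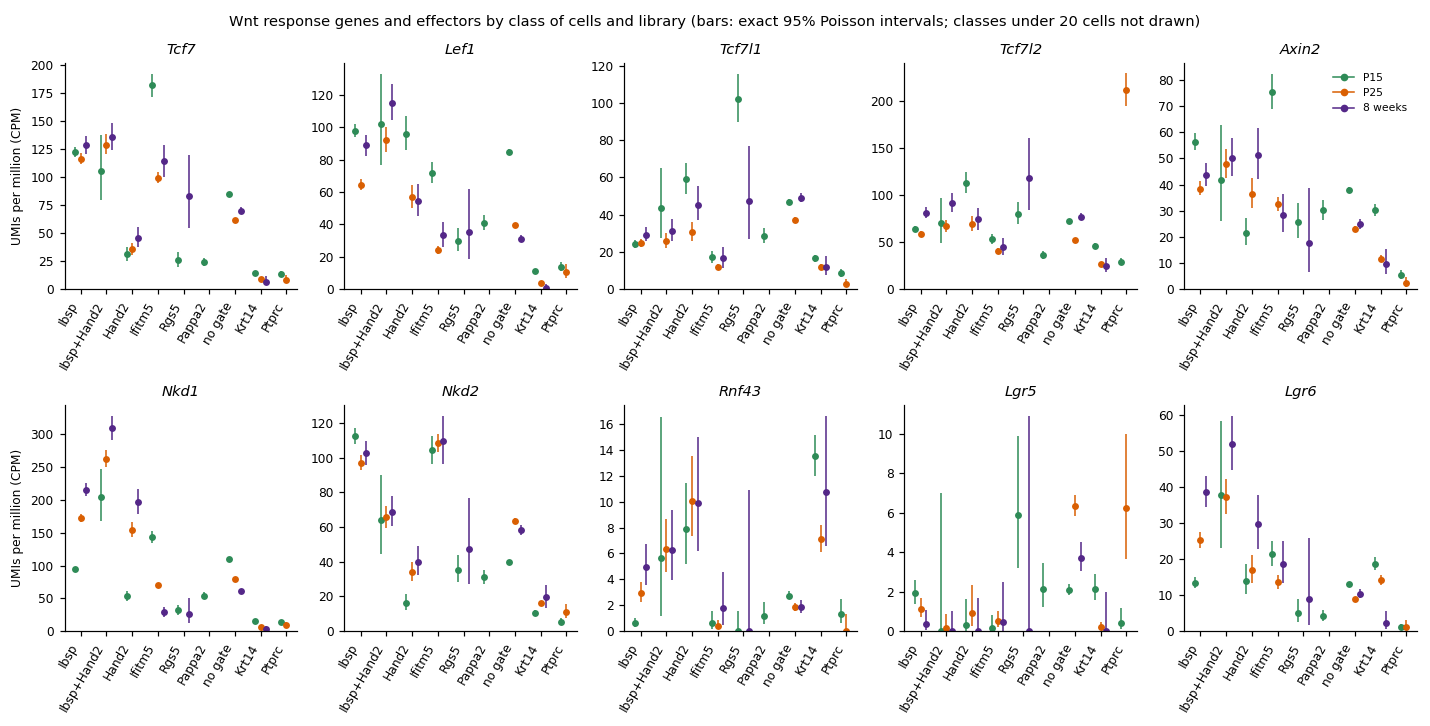
Levels of the 10 genes in CPM, on a linear axis from 0, by class of cells and library, with 1 point per library and exact 95% Poisson intervals as bars. Of the classes drawn, Nkd1 is highest in the cells with Ibsp and Hand2 (204, 263 and 310 CPM) and Nkd2 in the Ibsp and Ifitm5 gates. Classes of fewer than 20 cells are not drawn.

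Among the DNA-binding partners, Tcf7 was higher in both mineralizing gates than in the Hand2 gate, while Lef1 was lower in the Ifitm5 gate than in the Ibsp and Hand2 gates. Tcf7, which encodes TCF1, stood at 122, 116 and 129 CPM in the Ibsp gate at P15, P25 and 8 weeks. In the Ifitm5 gate it stood at 182, 99.3 and 114 CPM, and in the Hand2 gate at 30.9, 35.4 and 45.9. The Hand2 gate lay below both mineralizing gates for Tcf7 in every library with no overlap of intervals. Lef1 stood at 98.0, 64.4 and 88.9 CPM in the Ibsp gate and at 72.1, 23.9 and 33.3 in the Ifitm5 gate, where its intervals lay below those of the Hand2 gate (96.2, 56.9 and 54.4 CPM) in every library. In cells with Ibsp and Hand2 it reached 102, 92.3 and 115 CPM. At P15 the Lef1 intervals of the Ibsp gate, the Hand2 gate and their joint class overlapped, so these 3 levels did not differ beyond counting error. Tcf7l1, which mostly represses Wnt targets, was highest in the Rgs5 gate at P15, at 102 CPM. At 8 weeks its 47.3 CPM there did not differ beyond counting error from the 45.4 of the Hand2 gate, and the Ifitm5 gate was low at 17.0, 11.7 and 16.4. Tcf7l2 was spread more evenly over the mesenchymal gates, between 36.2 and 118 CPM in the sums tested. Its highest value was that of the 155 CD45 cells at P25 (212 CPM, interval 195 to 230), against 29.0 at P15. Of the 578 UMIs behind it, 413 came from 68 of these cells that carried lymphoid markers, where the level was 298 CPM.

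Of the feedback inhibitors, Nkd2 was highest in the mineralizing gates and Rnf43 was scarce there. Nkd2 stood at 112, 97.0 and 103 CPM in the Ibsp gate, at 104, 108 and 110 in the Ifitm5 gate and at 16.3, 34.1 and 40.0 in the Hand2 gate. Both mineralizing gates lay above every other gate in each library. Axin2 was more even, with 56.4, 38.5 and 43.7 CPM in the Ibsp gate, 75.5, 32.5 and 28.4 in the Ifitm5 gate and 21.6, 36.4 and 51.3 in the Hand2 gate. Its highest class changed with age, from the Ifitm5 gate at P15 to the cells with Ibsp and Hand2 at P25 (47.7 CPM) and the Hand2 gate at 8 weeks, where its interval overlapped those of the cells with Ibsp and Hand2 and of the Ibsp gate but not that of the Ifitm5 gate. Rnf43 was highest in the Hand2 and Krt14 gates. It stood at 7.87, 10.1 and 9.90 CPM in the Hand2 gate and at 13.5, 7.11 and 10.8 in the Krt14 gate. In the cells with Ibsp and Hand2 it stood at 5.67 (on 3 UMIs), 6.36 and 6.23 CPM. These intervals overlapped those of the Hand2 gate in each library. The Ibsp gate held 13, 60 and 41 UMIs of Rnf43 at the 3 ages, a level of 0.592, 2.93 and 4.99 CPM. At 8 weeks its interval overlapped that of the Hand2 gate. No UMI of Rnf43 was counted in the Rgs5 gate at any age, where 3 counts correspond to 1.26 CPM at P15 and 8.86 CPM at 8 weeks.

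The R-spondin receptors differed from each other. Lgr6, like Nkd1, was highest in the cells with Ibsp and Hand2, at 37.8, 37.2 and 52.0 CPM. At P15 its interval there overlapped that of the Ifitm5 gate (21.4 CPM). Lgr6 stood at 13.5, 25.3 and 38.7 CPM in the Ibsp gate. In the Krt14 gate it stood at 18.7 and 14.2 CPM at P15 and P25 and at 2.15 CPM, on 4 UMIs, at 8 weeks. Lgr5, known as a stem cell marker of the intestine, was scarce. Its level was at most 6.24 CPM in any gate of at least 20 cells. Cells above no gate held 240, 530 and 101 of its UMIs (2.10, 6.35 and 3.72 CPM), against 1.94, 3.71 and 2.34 CPM over all cells. At P15 the Rgs5 gate stood higher, at 5.88 CPM on 14 UMIs. In the cells with Ibsp and Hand2, Lgr5 was counted 0, 1 and 0 times.

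Each mesenchymal gate was compared with the mean of the other mesenchymal gates, with the library as a block, by the quasi-likelihood test of edgeR, with p adjusted by Benjamini-Hochberg over all 14370 genes. In the Ibsp gate, 1 of the 10 genes was called, against 0.821% of all genes. Nkd2 was higher there, with a log2 fold change of 1.16 ± 0.18 (SE, adjusted p = 0.0113), and the call was lost without P25 (adjusted p = 0.203) or without 8 weeks (0.0842). Tcf7 missed the threshold with a log2 fold change of 1.40 ± 0.30 (adjusted p = 0.0576) and passed it without P15 (0.023) or without 8 weeks (0.0352). Over all alternatives to the analysis its adjusted p lay between 0.00152 and 0.617, under 0.05 in 7 of 15. The median log2 fold change of the 10 genes was 1.18, against 0.04 for all genes tested.

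In the Ifitm5 gate 3 of the 10 genes were called, where 13.1% of all genes were. Tcf7 was higher with a log2 fold change of 1.77 ± 0.30 (adjusted p = 0.0029) and Nkd2 with 1.47 ± 0.18 (adjusted p = 0.00048), while Tcf7l1 was lower with -1.03 ± 0.27 (adjusted p = 0.0281). Nkd2 kept its call when any library was left out. Without P25 the calls of Tcf7 and Tcf7l1 were lost (adjusted p = 0.0782 and 0.101), and without 8 weeks that of Tcf7l1 (0.114). In the Hand2 gate 2 were called, against 3.95% of all genes. Nkd2 was lower there, with a log2 fold change of -1.28 ± 0.21 (adjusted p = 0.00714), and Rnf43 was higher (adjusted p = 0.0248), with no fold given because the Rgs5 sums held none of its UMIs. Both calls were lost without P25 (adjusted p = 0.146 and 0.195), and that of Rnf43 also without 8 weeks (0.0885). In the Rgs5 gate Tcf7l1 was the 1 gene called, with a log2 fold change of 1.22 ± 0.30 (adjusted p = 0.0298), against 6.90% of all genes. It was lost without P15 (adjusted p = 0.431) or 8 weeks (0.101). The Pappa2 gate, with its single sum, had none called by edgeR and 1 at an unadjusted p under 0.05, against 0.404% of all genes called. Over the 5 contrasts together DESeq2 made 10 calls among the 10 genes where edgeR made 7, and 5419 over all genes where edgeR made 3612.

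**Figure D2:**
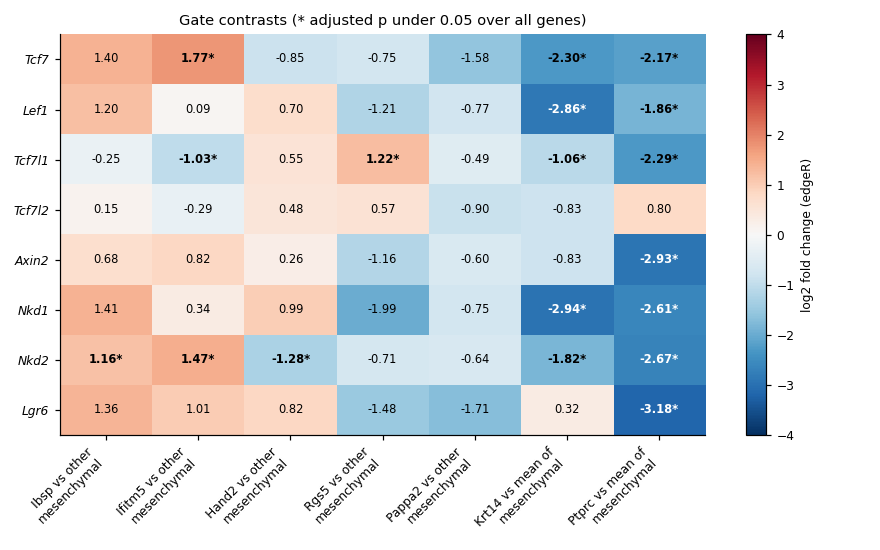
log2 fold changes from edgeR of 8 of the genes (rows) in each gate contrast (columns), blue for lower and red for higher, with an asterisk where the adjusted p over all genes was under 0.05. Nkd2 is higher in the Ibsp and Ifitm5 gates (1.16 and 1.47) and lower in the Hand2 gate (-1.28). Rnf43 and Lgr5, which rest on few UMIs in several gates, are not drawn. Some drawn values also rest on sums with few UMIs. Lef1 had 1 UMI in the Krt14 gate at 8 weeks. Lgr6 had 3 in the Ptprc gate at P25 and 3 in the Rgs5 gate at 8 weeks.

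Against the mean of the mesenchymal gates, 5 of the 10 genes were lower in epithelial cells and 7 in immune cells. In the Krt14 gate 6 of the 10 were called, near the 52.4% of all genes. Lef1, Tcf7, Tcf7l1, Nkd1 and Nkd2 were lower, where 24.4% of all genes were called lower, and Rnf43 was higher. For Rnf43 the mean of the mesenchymal gates includes the Rgs5 sums, which held none of its UMIs. At P25 and 8 weeks its interval in the Krt14 gate overlapped that of the Hand2 gate. Lef1 had 11.1, 4.01 and 0.538 CPM in the Krt14 gate (229, 105 and 1 UMIs), a log2 fold change of -2.86 ± 0.36 over the libraries (adjusted p = 5.6e-05). Nkd1, with -2.94 ± 0.60 (adjusted p = 0.00158), lost its call narrowly without P25 (adjusted p = 0.05). In the Ptprc gate 7 of the 10 were called, all lower, against 51.1% of all genes called and 23.9% called lower. The make-up of this gate differed between its libraries. At P15, 497 of its 654 cells carried Tyrobp and no lymphoid marker, and 49 carried lymphoid markers. At P25 these were 48 and 68 of 155. Axin2 had a log2 fold change of -2.93 ± 0.52 (adjusted p = 0.000666) and Nkd2 one of -2.67 ± 0.28 (adjusted p = 9.83e-06). Without P25, when the Ptprc gate was the single sum of P15, 3 of the 10 genes were called, all lower, against 29.0% of all genes called, 19.2% higher and 9.85% lower.

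To ask whether the Wnt response differs between the mineralizing gates, the Ibsp gate was set against the Ifitm5 gate. Over the 3 libraries together, edgeR called none of the 10 genes and gave 1, Lef1, an unadjusted p under 0.05, while 2.29% of all genes were called. Lef1 had a log2 fold change of 0.89 ± 0.35 (adjusted p = 0.222) and Tcf7l1 one of 0.62 ± 0.30 (adjusted p = 0.325). Nkd1 had 0.86 ± 0.61 (adjusted p = 0.555), Axin2 -0.12 ± 0.39 (adjusted p = 0.951) and Tcf7 -0.30 ± 0.35 (adjusted p = 0.762). DESeq2 called none either. Each library is a different age, so a difference between the gates that changed with age widens the spread that these tests measure. Without P15, 3 genes were called, all higher in the Ibsp gate, where 13.8% of all genes were called, 7.05% higher and 6.72% lower: Lef1 (log2 fold change 1.19, adjusted p = 0.0297), Tcf7l1 (0.71, 0.0327) and Rnf43 (adjusted p = 0.0189, on few UMIs). Over all alternatives to the analysis the adjusted p of Lef1 lay between 0.0297 and 0.901.

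Inside each library, ratios of CPM were read against the median of all genes, which was higher in the Ibsp gate by a log2 of 0.11, 0.34 and 0.21 at P15, P25 and 8 weeks. At P15, 3 of the 10 genes were higher in the Ibsp gate by intervals that did not overlap and 4 were lower, where 14.8% and 17.0% of all genes were. At P25, 6 were higher and 1 lower, against 21% and 23.5%. At 8 weeks, 4 were higher and 1 lower, against 10.7% and 12.1%. Lef1 was higher in the Ibsp gate in all 3 libraries, by a relative log2 of 0.33, 1.09 and 1.21 at P15, P25 and 8 weeks. Nkd1 was lower in the Ibsp gate at P15 by a relative log2 of -0.71, with 94.3 CPM against 143 in the Ifitm5 gate. It was higher there at P25 (172 against 69.8 CPM, relative log2 0.96) and at 8 weeks (216 against 28.8 CPM, 2.70). Lgr6 went the same way, with -0.77, 0.56 and 0.85, and the difference between ages was not tested for either gene. Axin2 and Tcf7 were lower in the Ibsp gate at P15, by -0.53 and -0.68, and overlapped between the gates at P25 and 8 weeks. Nkd2 overlapped at P15 and was lower in the Ibsp gate at P25 and 8 weeks, by -0.50 and -0.30.

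**Figure D3:**
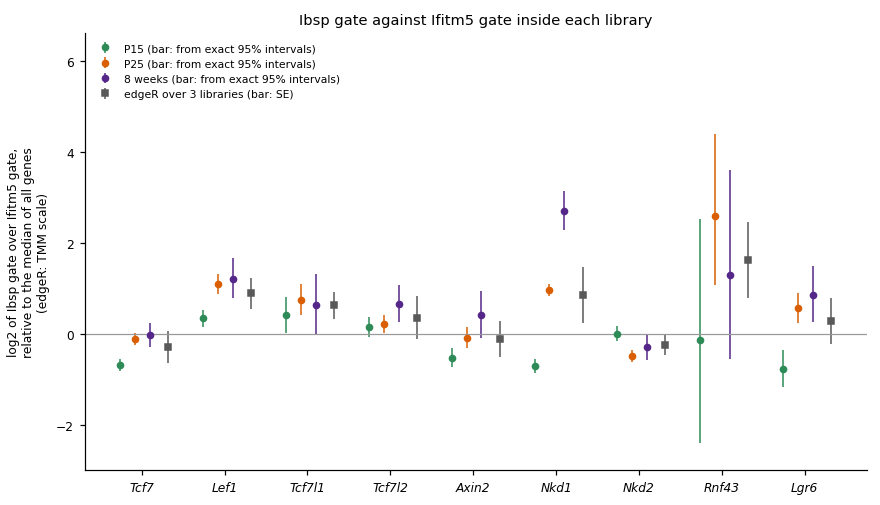
log2 of the level in the Ibsp gate over that in the Ifitm5 gate for 9 genes, relative to the median of all genes, for each library (circles, bars from the exact 95% intervals of both levels) and from edgeR over the 3 libraries (grey squares, SE). Nkd1 and Lgr6 lie below 0 at P15 and above 0 at P25 and 8 weeks, and Lef1 lies above 0 in each library. Lgr5 is left out because the Ifitm5 gate held 1 of its UMIs at P15 and at 8 weeks.

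The Ifitm5 gate at P15 was itself mixed. Of its 343 cells, 137 were above the Ifitm5 gate alone and 206 above both it and the Ibsp gate. Nkd1 stood at 239 CPM (interval 222 to 258) in the first and 69.1 CPM (61.0 to 78.0) in the second, below the 94.3 CPM of the Ibsp gate. Axin2 showed the same order, with 92.6 and 62.5 CPM, and Lgr6 with 28.8 and 15.7, each without overlap of intervals. Lef1 had the opposite order, with 52.0 and 87.4 CPM, and Tcf7 did not differ beyond counting error, with 176 and 186. The whole Ifitm5 gate held 41.1 CPM of Dspp, the odontoblast marker, at P15, against 3.10 in the Ibsp gate, and the part of odontoblast RNA in these values was not tested.

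Cells with Ibsp and Hand2 together were also set against each gate alone, in a fit of 20 sums and 14294 genes. Against the Ibsp gate, none of the 10 genes was called by edgeR and 1 had an unadjusted p under 0.05, where 0.728% of all genes were called. Against the Hand2 gate 2 were called, both higher, where 1.58% of all genes were. These were Tcf7 (log2 fold change 1.80 ± 0.35, adjusted p = 0.0233) and Nkd2 (1.20 ± 0.23, adjusted p = 0.0155). Nkd1, the gene with the highest levels in this class, did not pass in either contrast.

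The other genes of the pathway were 49 in all, with 48 tested. Between the Ibsp and Ifitm5 gates 1 was called higher and 1 lower in the Ibsp gate, where 2.29% of all genes were called. Of 14 receptors tested 1 was lower in the Ibsp gate, Fzd9, which encodes a Frizzled receptor (log2 fold change -2.21 ± 0.42, adjusted p = 0.0209). Of the 4 R-spondins 1 was higher, Rspo1 (1.13 ± 0.15, adjusted p = 0.00508). None of 9 genes of the signal relay and destruction complex, 10 nuclear cofactors and 11 other feedback and response genes was called. An unadjusted p under 0.05 was found for 11 of the 48, a count for which no share over all genes was taken. The median log2 fold change was -0.02 for these 48 genes, 0.49 for the 10 genes described here and 0.04 for all genes.

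Between P15 and 8 weeks, the levels of Nkd1 and Axin2 differed in opposite directions in different gates. The comparison is between 1 library at P15 and 1 at 8 weeks, and the median of all genes moved by at most 0.11 on the log2 scale in the Ibsp, Ifitm5 and Hand2 gates. In the Ibsp gate 4 genes were higher at 8 weeks and 2 lower with intervals apart, where 17.3% and 16.9% of all genes were. In the Hand2 gate 5 were higher and 2 lower, against 14.2% and 10.6%. In the Ifitm5 gate none was higher and 4 were lower, against 7.68% and 15%. Nkd1 went from 94.3 to 172 and 216 CPM in the Ibsp gate and from 53.3 to 155 and 197 in the Hand2 gate. It went from 143 to 69.8 and 28.8 CPM in the Ifitm5 gate, so the gate with the highest Nkd1 of these 3 at P15 had the lowest at 8 weeks. Among cells above both the Ifitm5 and Ibsp gates Nkd1 stood at 69.1, 66.5 and 30.0 CPM, and these cells were 206 of 343, 399 of 587 and 155 of 178 of that gate.

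Lgr6 went from 13.5 to 25.3 and 38.7 CPM in the Ibsp gate and from 14.0 to 16.9 and 29.7 in the Hand2 gate. Axin2 went from 21.6 to 36.4 and 51.3 CPM in the Hand2 gate and from 75.5 to 32.5 and 28.4 in the Ifitm5 gate. In the Ibsp gate Axin2 was 1.29 times as high at P15 as at 8 weeks, with intervals apart. Lef1 was highest at P15 in the Hand2 and Ifitm5 gates, by 1.77 and 2.17 times over 8 weeks. In the cells with Ibsp and Hand2, Nkd1 was the 1 gene of the 10 with intervals apart between P15 and 8 weeks, higher at 8 weeks, where 6.19% of all genes were higher and 4.82% lower. Outside the gates 3 were higher and 6 lower at 8 weeks, against 25.2% and 36.0% of all genes, and in the Krt14 gate 1 was higher and 6 lower, against 13.1% and 17.7%. The markers of the Ibsp gate summed in the Hand2 gate to 61.5, 354 and 432 CPM over the 3 ages, and those of the Ifitm5 gate stood in that gate at 11869, 18829 and 27428 CPM. The part of these shifts within gates in the time course was not tested. When cells were thinned to 3000 UMIs, 1 gene of the Hand2 gate had intervals apart, with the fewer UMIs behind each level, where 6.62% of all genes were higher and 5.29% lower at 8 weeks.

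**Figure D4:**
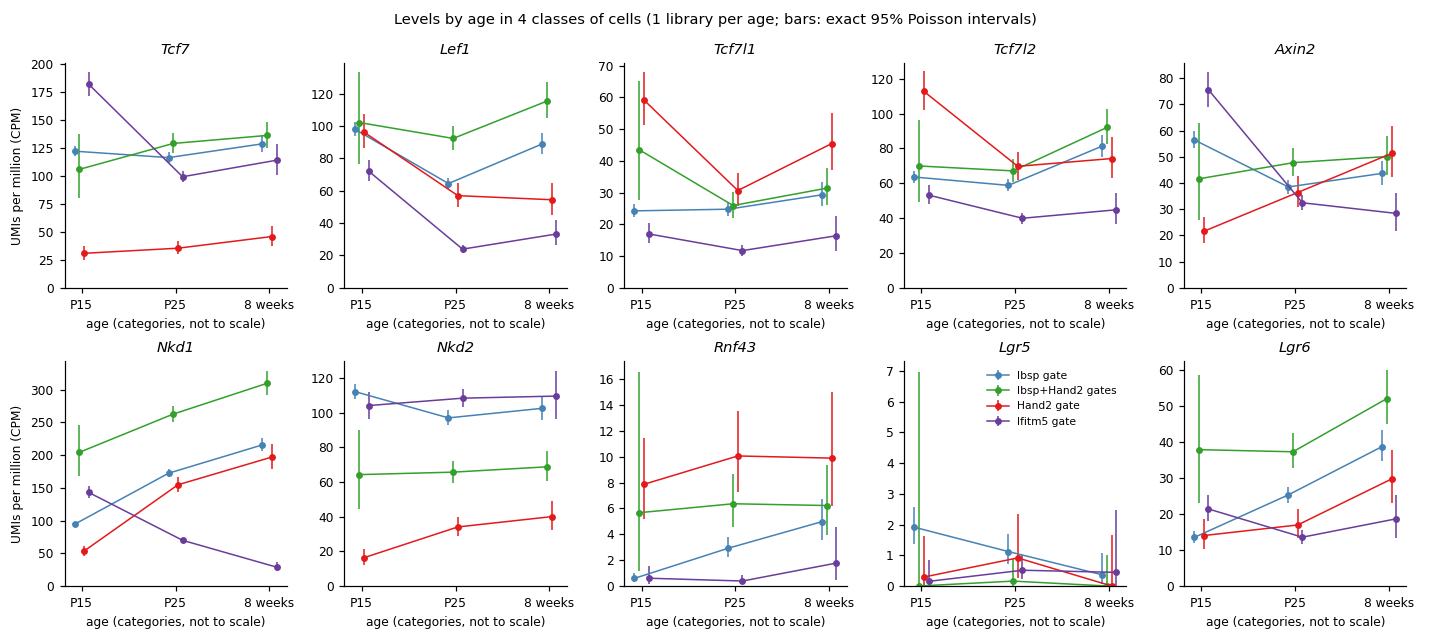
Levels in CPM, on linear axes from 0, at P15, P25 and 8 weeks (categories, 1 library each) in 4 classes of cells, with exact 95% Poisson intervals as bars. Nkd1 goes up in the Ibsp and Hand2 gates and in the cells with both (to 310 CPM), and down in the Ifitm5 gate (to 28.8 CPM).

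Wif1 UMIs per cell were related to a subset of these genes. Mesenchymal cells (8950, 7444 and 4895 at P15, P25 and 8 weeks) were those below the Krt14 and Ptprc gates and with few UMIs of immune, endothelial, epithelial and erythroid markers. They were cut into 5 equal bins by Wif1 UMIs per 10000 UMIs inside each library, from a median of 1.73, 3.58 and 1.81 in the lowest bin to 66.1, 91.6 and 113 in the highest. The highest bin was compared with the lowest over the 3 libraries by edgeR with the library as a block, on 13753 genes. Of the 10 genes 5 were called, 4 higher and 1 lower, against 33.1% of all genes (15.5% higher and 17.6% lower). Their median log2 fold change was 0.44, against 0.01 for all genes.

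Lef1 stood at 24.0, 21.6 and 13.7 CPM in the lowest bin and at 168, 66.3 and 54.6 in the highest. The difference was a log2 fold change of 2.17 ± 0.28 (adjusted p = 0.000431). Tcf7 stood at 29.3, 36.2 and 39.8 CPM in the lowest bin and at 159, 100.5 and 101.5 in the highest, a log2 fold change of 1.79 ± 0.23 (adjusted p = 0.000345). Both kept their calls when any library was left out. Nkd1 stood at 37.1, 49.4 and 27.1 CPM in the lowest bin and at 216, 115 and 94.6 in the highest, a log2 fold change of 1.94 ± 0.41 (adjusted p = 0.00563). Lgr6 stood at 2.74, 7.34 and 9.99 CPM and at 24.6, 11.8 and 17.0, a log2 fold change of 1.64 ± 0.48 (adjusted p = 0.0255). Without P25 the calls of Nkd1 and Lgr6 were lost (adjusted p = 0.0574 and 0.0987), and without 8 weeks that of Lgr6 (0.0708). In each library the highest bin lay above the lowest for all 4 of these genes.

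Lgr5 went the other way, with 2.60, 7.65 and 7.37 CPM in the lowest bin and 1.20, 1.24 and 1.02 in the highest. Its log2 fold change was -2.24 ± 0.54 (adjusted p = 0.0096), and the call was lost without P25 (0.102) or without 8 weeks (0.0597). Axin2 was not called (0.57 ± 0.24, adjusted p = 0.0984). It stood at 24.4, 24.4 and 21.5 CPM in the lowest bin and 55.8, 25.9 and 25.8 in the highest, so that P15 differed most, and without P15 its log2 fold change was 0.15 (adjusted p = 0.491). Tcf7l1, Tcf7l2, Nkd2 and Rnf43 had log2 fold changes between -0.05 and 0.32, none called. Nkd2 was called lower without P15 (-0.43, adjusted p = 0.00933), with 87.8 CPM in the lowest and 59.7 in the highest bin at P25, against 36.0 and 59.4 at P15.

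The shape over the bins differed between genes and ages. At P15, Lef1, Tcf7, Nkd1 and Lgr6 went up at each of the 4 steps, and Tcf7l1 and Tcf7l2 went down at each. At P25 and 8 weeks Nkd1 stood at 134 and 179 CPM in the middle bin and at 133 and 174 in the bin above it, with overlapping intervals, and was lower in the highest bin. Lgr6 stood at 18.8 and 31.5 CPM in the middle bin and at 17.8 and 24.1 in the next, with intervals apart only at 8 weeks. At P25 and 8 weeks, 13.5% and 13.9% of the middle bin were cells with Ibsp and Hand2, and 8.93% and 13.6% of the next. In the highest bin they were 0.806% and 2.76%. The part of these cells in the shape was not tested. The highest bin was made up of cells above no gate to 90.8%, 93.1% and 85.9%. Among mesenchymal cells above no gate alone, the same 5 genes were called (33.4% of all genes in that fit, 15.6% higher and 17.8% lower), with log2 fold changes of 2.69 for Lef1, 2.58 for Tcf7, 1.64 for Nkd1, 2.05 for Lgr6 and -2.30 for Lgr5. Among cells of the Hand2 gate alone 5 genes were called, where 4.71% of all genes were, 2.15% higher and 2.57% lower. Of the 5, Lef1 (1.24, adjusted p = 0.0217), Nkd1 (2.04, 0.0042), Axin2 (1.26, 0.0157) and Nkd2 (1.52, 0.00814) were higher and Tcf7l1 (-0.97, 0.0288) was lower.

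**Figure D5:**
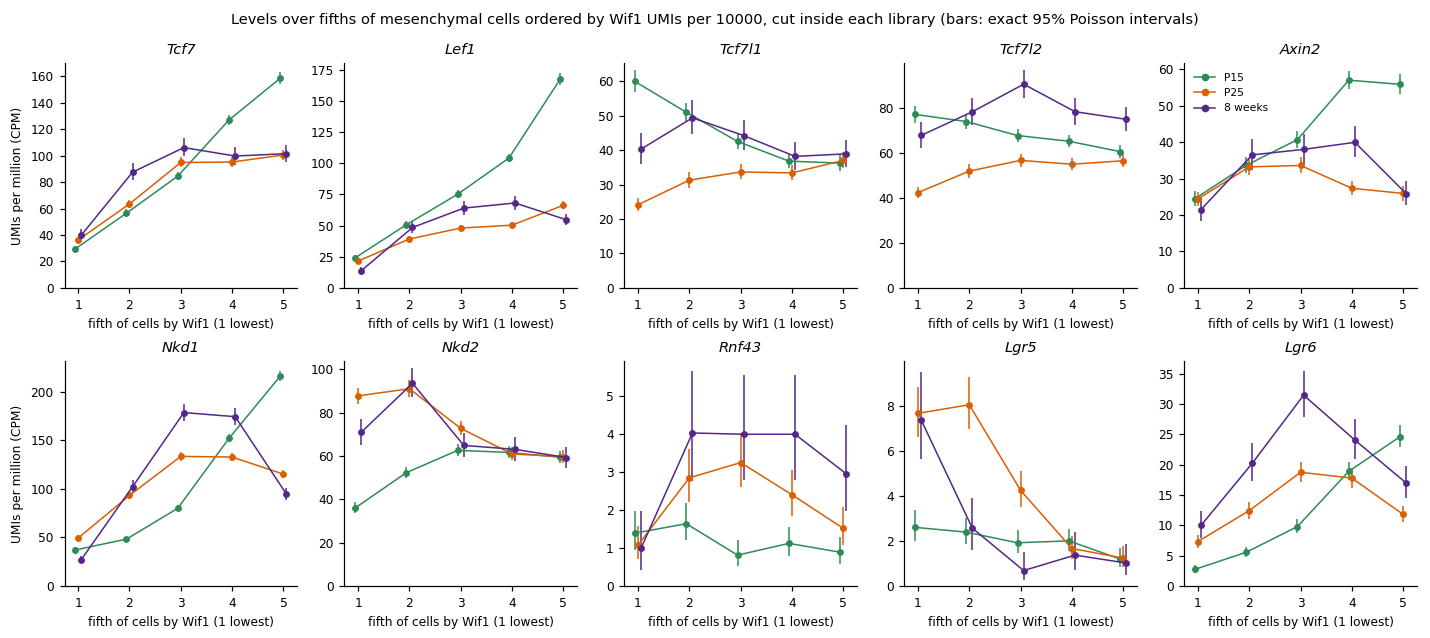
Levels in CPM, on linear axes from 0, over bins of mesenchymal cells ordered by Wif1 inside each library, with 1 line per library and exact 95% Poisson intervals as bars. Lef1 and Tcf7 are higher in the highest than in the lowest bin in each library, Nkd1 and Lgr6 are lower in the highest bin than in the middle bin at P25 and 8 weeks, and Lgr5 is lower in the highest bin.

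Cell by cell, after thinning to 3000 UMIs, Spearman's rho with Wif1 over the mesenchymal cells was 0.27, 0.12 and 0.13 for Nkd1, 0.25, 0.10 and 0.10 for Lef1 and 0.24, 0.12 and 0.11 for Tcf7 (8371, 7033 and 4076 cells). These are descriptions over cells that share a library, and values this weak in sparse counts carry no finding of their own. Within the Ibsp gate rho for Nkd1 was 0.15, 0.25 and 0.30. In sums of cells Wif1 itself stood at 2535, 3372 and 4130 CPM in the Ibsp gate. It stood at 1051, 2509 and 3534 CPM in the Hand2 gate and at 2549, 1900 and 1280 in the Ifitm5 gate. At 8 weeks Nkd1 was also lowest in the Ifitm5 gate of these gates, while its Ibsp and Hand2 intervals overlapped.

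Of the other pathway genes, 15 of 48 were called between the highest and lowest bins by Wif1, 7 higher and 8 lower, a share near the 33.1% of all genes (15.5% higher and 17.6% lower). Receptors went both ways. Fzd1, Fzd2, Fzd6 and Fzd7 were higher, with log2 fold changes of 1.23, 0.78, 0.71 and 0.57, while Fzd4 (-3.46), Lrp6 (-0.44) and Lgr4 (-0.68) were lower. Among response genes, Ccnd1, which encodes cyclin D1, was higher (1.80 ± 0.18, adjusted p = 8.63e-05) and so was Dact3 (0.35), while Dact2 (-2.96) and Cd44 (-1.02) were lower. Rspo2 was higher (0.76 ± 0.16, adjusted p = 0.00499) and Rspo4 lower (-4.23 ± 0.66, adjusted p = 0.000921). Gsk3b (-0.18), which encodes a kinase of the destruction complex, and the corepressor gene Tle1 (-0.31) were lower by small amounts.

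The genes whose levels over the 17 sums of gates were most like those of each member, by Pearson's r on log2 CPM, are given as a description, since the sums share libraries and gates. Lef1 was most like St6galnac3 (r = 0.975), Peg10 (0.955) and Hecw2 (0.954). Nkd1 was most like Ptpdc1 (0.954), Ism1 (0.948) and Dchs1 (0.941), and Nkd2 like Qpct (0.949), Fxyd6 (0.948) and Cpe (0.935). Tcf7 was most like Fut8 (0.955), 2410004P03Rik (0.955) and Unc5b (0.949), and Axin2 like Bmpr1a (0.927), Fgd1 (0.924) and Senp6 (0.919). Tcf7l1 was most like Gpc6 (0.951), Hdgfrp3 (0.933) and Tead1 (0.926), Tcf7l2 like Slc25a36 (0.866), Nmrk1 (0.853) and Zbtb4 (0.841), and Lgr6 like Gtf2ird1 (0.905), Cyhr1 (0.893) and Tmem9 (0.883). Rnf43 was most like Tfap2a (0.938), Rin1 (0.881) and Scrn2 (0.875). For Lgr5, with few counts, they were Rec114 (0.835), Meig1 (0.808) and Smim1 (0.802). Among the 10 genes, the highest r over the sums was 0.904 between Tcf7 and Nkd2, followed by 0.873 between Lef1 and Nkd1 and 0.830 between Axin2 and Lgr6, and the lowest was -0.449 between Tcf7l2 and Rnf43.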

How the data were processed

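The authors deposited UMI counts per gene and cell for 3 single-cell 3′ libraries, 1 each at P15, P25 and 8 weeks. Per the file headers, Cell Ranger 6.1.2 made the P15 and 8-week files and 6.0.1 the P25 file, while the submitters' processing notes name 6.1.2 and mm10. The gene annotation is not given in the sources used here. The counts were joined by gene identifier over the 21446 genes that all files share, and no further cell filter was applied and no doublet caller was run. The members, gates and gene lists were chosen with earlier results of these data known.

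Cells above a gate were summed per library, and sums of at least 20 cells were tested with edgeR 4.0.16 in R 4.3.3 (TMM, filterByExpr, robust quasi-likelihood fit, library as a block, Benjamini-Hochberg adjustment over all genes, threshold 0.05). Cells above both the Ibsp and Ifitm5 gates went to the Ifitm5 gate, and cells above other pairs of gates were kept out of the gates. The gates share 3 libraries, so that p-values measure the spread between these sums, which come from pooled animals. Sums of the same library deviated together, with a median correlation of 0.327, 0.490 and 0.255 at P15, P25 and 8 weeks and a lowest of 0.149, so the library pairs the sums. Fractions of cells with a UMI were compared after thinning each cell to 3000 UMIs, which left out 3499 of 27089 cells. Intervals (Poisson for levels, Clopper-Pearson for shares) and the floor of 3 counts cover counting error only. The named genes are the members, the gate genes and Wif1, pathway genes called in the Ibsp against Ifitm5 or the Wif1 comparison, and for each member the 3 genes with the highest Pearson correlation over the sums. Dspp, the other gate markers and the myeloid markers are named as checks. Alternatives were DESeq2 1.42.0, other size factors, no low-count filter, other gate thresholds, other treatment of cells above several gates, a cell filter, leaving out the 6% of cells with the most UMIs, thinning, no block, other bins of Wif1 and leaving out each library. The fits were tested on simulated data, and tables and figures were made with Python 3.11.15.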

Additional observations from a re-analysis of the deposited data

Results flagged for a closer look

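For 2 genes the libraries went in opposite ways between the Ibsp and Ifitm5 gates. The log2 ratio of Ibsp over Ifitm5, relative to the median of all genes, was -0.71, 0.96 and 2.70 at P15, P25 and 8 weeks for Nkd1. For Lgr6 it was -0.77, 0.56 and 0.85. At P15, 137 of the 343 cells of the Ifitm5 gate were above that gate alone, with 239 CPM of Nkd1 and 28.8 of Lgr6. The 206 cells above both gates held 69.1 and 15.7 CPM, against 94.3 and 13.5 in the Ibsp gate. The part of this mixture in the P15 ratios was not tested. The difference between ages was not tested, since each age is a single library.

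A pair of sums too small to enter a test held levels that stand out. The 16 cells of the Rgs5 gate at P25 held 73.4 CPM of Tcf7l1. The 15 cells of the Pappa2 gate at P25 held 43.9 CPM of Lgr5, on 11 UMIs in 3 cells with 6 of them in a single cell. In the Pappa2 gate at P15, 11 of 383 cells held 16 UMIs of Lgr5, and at 8 weeks 3 of 11 cells held 3.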

How the results depend on the processing

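Over all genes, the calls without 1 library ranged from 1 to 1836 between the Ibsp and Ifitm5 gates (329 with all 3), from 700 to 4327 over the 5 mesenchymal contrasts (3612), from 4682 to 7470 for Krt14 (7530), from 4036 to 6899 for Ptprc (7348) and from 1466 to 4173 for Wif1 (4551). Among the 10 genes they ranged from 0 to 3 (0), 2 to 9 (7), 5 to 8 (6), 3 to 8 (7) and 2 to 7 (5), and most were lowest without P25. Without the library block, 105 genes were called between the Ibsp and Ifitm5 gates and 1386 by Wif1, where 3 of the 10 genes were called. Calls of the mesenchymal contrasts then numbered 6.

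Thinning gave 210 genes between the Ibsp and Ifitm5 gates, 1967 over the mesenchymal contrasts, 4785 for Krt14 and 2598 for Wif1, and left 1 of 7 genes in the Hand2 gate with intervals apart between P15 and 8 weeks. DESeq2 gave 919 between the Ibsp and Ifitm5 gates and 5419 over the mesenchymal contrasts. Between the Ibsp and Ifitm5 gates, leaving out cells above both gave 1175 and doubled thresholds 632. Wif1 bins gave 393 among Hand2-gate cells and 2535 with 3 bins. Counting cells with Ibsp and Hand2 in the Ibsp gate, and sums of at least 10 cells, were chosen after seeing the data and moved no count of calls by over 1.5 times.

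Directions turned for the following values. The Wif1 log2 fold change of Nkd2 was 1.52 among Hand2-gate cells, 0.0756 above no gate and 0.0376 by raw UMIs, that of Rnf43 -0.0036 with 3 bins, and that of Tcf7l2 -0.74 among Hand2-gate cells and -0.0757 thinned. Between 8 weeks and P15, Tcf7 in the Hand2 gate was -0.26 thinned (0.57 as reported). Among values whose intervals overlapped as reported, those in the Ifitm5 gate turned for Lgr6 (-0.20 to 0.64) and Tcf7l1 (-0.0505 to 0.69) thinned and for Nkd2 (0.074 to -0.36) with doubled thresholds, and Rnf43 in the Hand2 gate turned with doubled thresholds on few UMIs. Without 1 library, the Wif1 values ranged from -0.43 to 0.25 for Nkd2, -0.0883 to 0.90 for Rnf43, -0.38 to 0.30 for Tcf7l1 and -0.0784 to 0.28 for Tcf7l2, and the Ibsp over Ifitm5 values from -0.32 to 0.11 for Axin2 and -0.0606 to 0.74 for Lgr6. The causes were not tested. Lgr5 and Rnf43 rest on few UMIs in several gates, which limits what their levels can show.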
